A study of Mus musculus with 8 samples.

Results

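The genes described are 7 nuclear genes for the mitochondrial respiratory chain and the mitochondrial ribosome: Cox5b, Ndufb3, Ndufs1, Bcs1l, Mrpl15, Mrpl30 and Mrpl44. They were taken by name from the 779 usable gene rows of a single-cell RNA table and read over the 1388 of 1460 cell barcodes that held 100 or more unique molecular identifiers (UMIs, each standing for 1 captured RNA molecule). The cells came from stomach glands numbered 1 to 8, each labelled as a gland of an Atp4bCre; Rosa26NICD; Arid1a flox/flox mouse, at an age of 23 weeks. These are the 8 samples, all of this genotype and with no other genotype. Every group described has the same genotype label, and whether the alleles had recombined in a given barcode was not tested. Cre driven by Atp4b acts in acid-secreting parietal cells, where it releases the active intracellular part of Notch (NICD) from Rosa26 and deletes the floxed segment of Arid1a, a chromatin remodelling subunit. Cells sorted as EPCAM high and low in the dye Sytox, a selection for live epithelium, went onto the 10x droplet platform. The labels do not say whether the 8 samples were separate animals, and the barcodes carry no sample number, so all values come from 1 pooled sample without replicates. No p-value can be given, and every interval below is a 95% interval for counting error only. It covers neither differences between animals nor spread between barcodes beyond counting error.

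The respiratory chain passes electrons through complexes in the inner mitochondrial membrane and drives the making of ATP. Some of its subunits are made inside the mitochondrion by a dedicated mitochondrial ribosome, whereas all proteins of that ribosome and most chain subunits are encoded in the nucleus and imported. In the stomach, parietal cells are packed with mitochondria because the proton pump consumes ATP. Cox5b encodes a subunit of cytochrome c oxidase (complex IV), Ndufb3 an accessory subunit in the membrane arm of NADH dehydrogenase (complex I), and Ndufs1 a large iron-sulphur subunit of complex I. Bcs1l encodes an ATPase that inserts the Rieske iron-sulphur protein into complex III, and is thus an assembly factor and not a subunit. Mrpl15, Mrpl30 and Mrpl44 encode proteins of the large subunit of the mitochondrial ribosome.

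The table covers part of chromosome 1, so a barcode's total is not the depth of its library. Totals ran from 100 to 1082 UMIs with a median of 286, and the kept barcodes held 439743 of 444786 UMIs. Cytosolic ribosomal protein genes Rpl7, Rpl31 and Rpl37a made up 40.3% of them and the 7 mitochondrial genes 7.47%. The level of a gene is given in CPM, its summed UMIs per 1000000 UMIs of the table in the same barcodes, so a level also moves when the abundant genes move. Of 61 marker genes in 13 cell type lists, 18 had a row, and the lists for parietal, chief, mucous neck, pit and general epithelial cells had none, so the labelled cell type could not be checked against its defining genes and no barcode was named. No barcode was repeated among the columns. Doublets were not called, and UMIs from free RNA were not measured because no cell type could be named in which a gene should be absent.

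Among the respiratory chain genes, Cox5b was by far the most abundant, with 20943 UMIs, a level of 47626 CPM (46983 to 48275) and the fifth-highest count of the table. It was seen in 99.7% of barcodes, at a median of 13 UMIs and at most 55. Ndufb3 followed with 4449 UMIs and 10117 CPM (9822 to 10419), seen in 90.2% of barcodes at a median of 3 UMIs. Ndufs1 had 755 UMIs and 1717 CPM (1597 to 1844), and 39.3% of barcodes held at least 1 UMI. Bcs1l had the fewest, 248 UMIs and 564 CPM (496 to 639), in 15.9% of barcodes, of which 195 held a single UMI and 25 held more.

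For the mitochondrial ribosome, Mrpl30 stood at 9503 CPM (9217 to 9796; 4179 UMIs, 89.8% of barcodes). Mrpl15 stood at 3739 CPM (3560 to 3924; 1644 UMIs, 61.8% of barcodes), and Mrpl44 at 1464 CPM (1354 to 1582; 644 UMIs, 34.8% of barcodes). A UMI counts a molecule once whatever its length, so these levels were compared between genes without a length correction, although capture may differ from gene to gene. In descending order the genes ran Cox5b, Ndufb3, Mrpl30, Mrpl15, Ndufs1, Mrpl44 and Bcs1l. The smallest step was from Ndufb3 to Mrpl30, a ratio of 1.06 (1.02 to 1.11), and the next smallest from Ndufs1 to Mrpl44, 1.17 (1.05 to 1.30). The other steps were at least 2.18-fold, the widest being 4.71-fold (4.56 to 4.86) from Cox5b to Ndufb3. Subunits of one assembly therefore differed widely. Within complex I, Ndufb3 stood at 10117 CPM and Ndufs1 at 1717 CPM, and the 3 mitochondrial ribosome genes spread from second-lowest to third-highest. Cox5b and Ndufs1, which belong to different complexes of the chain, lay further apart.

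How much a gene varied over barcodes was measured as the variance of its Pearson residuals, which is close to 1 when only counting error and the barcode total are at work. Cox5b had a residual variance of 2.50, above that of 92.9% of the 240 genes with 50 or more UMIs, whose median was 1.14. At the same relative spread this variance rises with a gene's count, so its rank partly follows abundance. Eef1b2, with a count close to that of Cox5b, had 1.81, and Rpl31, Rpl7 and Rpl37a had 1.63, 2.10 and 3.27. Ndufb3 stood at 1.26, above 72.1% of genes. Bcs1l (1.12), Mrpl15 (1.07), Mrpl30 (1.02), Ndufs1 (0.979) and Mrpl44 (0.971) all lay below the median of the genes. Among the 7, therefore, spread between barcodes was above that of the median gene for Cox5b and to a lesser extent for Ndufb3. The range that counting error alone would give around 1 was not computed, so the values of the other 5 are not read as spread or its absence. A like spread in the sparser genes could go unseen, though Mrpl30 had a count near that of Ndufb3. Intervals for counting error leave out spread between barcodes beyond it, so those of Cox5b are too narrow even for variation over barcodes. Cox5b made up 3.14% of a barcode's UMIs at the lower quartile, 4.57% at the median and 5.98% at the upper quartile.

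Between shallow and deep barcodes the levels differed by less than 1.5-fold. In the 330 barcodes with 100 to under 200 UMIs Cox5b stood at 40595 CPM, in the 405 with 200 to under 300 at 44939 CPM, in the 307 with 300 to under 400 at 51341 CPM and in the 346 with 400 or more at 48947 CPM. The deepest bin was 1.21 times (1.15 to 1.27) the shallowest. The same ratio was 1.35 (1.14 to 1.60) for Mrpl15, 1.13 (1.02 to 1.26) for Mrpl30, 0.908 (0.826 to 0.999) for Ndufb3 and 0.707 (0.480 to 1.06) for Bcs1l. Ndufs1 (1.22, 0.959 to 1.57) and Mrpl44 (1.30, 0.992 to 1.72) had intervals that include 1. None of the 7 genes passed a ratio of 1.5 in either direction, and 39.6% of the 240 genes did. The share among genes with counts like those of the 7 was not computed for depth. The 39.6% is therefore no measure of how steady the 7 were. The median ratio of the 240 genes was 0.854. Because depth and level moved together for some genes, ratios within these 4 bins stand beside the summed ratios below, as values or as their range.

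**Figure D1:**
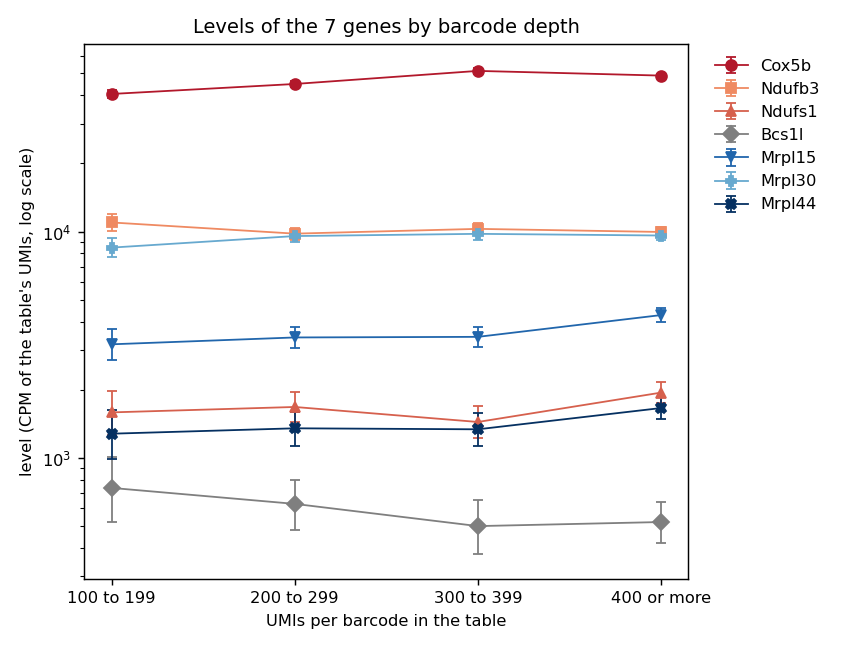
Level of each of the 7 genes (CPM of the table's UMIs, log axis) in 4 bins of barcode depth (UMIs per barcode); points are summed counts of a bin and bars 95% exact Poisson intervals, which cover counting error only. The order of the genes holds in every bin, with Cox5b between 40595 and 51341 CPM and Bcs1l lowest throughout.

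All 7 genes lie on chromosome 1, and their positions are given in GRCm38 (the assembly that mm10 names) from the GENCODE vM21 annotation. Cox5b (ENSMUSG00000061518) spans 36691449 to 36693681, Ndufb3 (ENSMUSG00000026032) 58586384 to 58595964, Bcs1l (ENSMUSG00000026172) 74588289 to 74592443, Mrpl30 (ENSMUSG00000026087) 37890477 to 37898535 and Mrpl44 (ENSMUSG00000026248) 79776018 to 79781445, all on the forward strand. Ndufs1 (ENSMUSG00000025968) spans 63143596 to 63176833 and Mrpl15 (ENSMUSG00000033845) 4773206 to 4785739 on the reverse strand. A feature that the choice of genes did not use is that 5 of the 7 start within 200 bases of a protein-coding gene that runs in the opposite direction, an arrangement called head to head. Ndufb3 lies 60 bases from Fam126b, Bcs1l 42 bases from Zfp142 and Mrpl30 65 bases from Mitd1. Ndufs1 overlaps Eef1b2 by 9 bases and Mrpl44 overlaps Wdfy1 by 126 bases at their starts. Of the 469 protein-coding genes of the table found in the annotation, 48 (10.2%) had such a neighbour, and of the 231 with 50 or more UMIs 37 (16.0%). Whether the counting used the strand is not given in the sources used here, so reads from the overlapping ends of those pairs cannot be told apart.

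The bases between such paired starts are shown because they separate the 2 starts of a pair; the 60 bases before Cox5b, which has no paired neighbour, are set beside them. They are read 5′ to 3′ on the forward strand from RefSeq promoters (GRCm38.p6), which had an entry for 5 of the 7 genes.
Cox5b, chr1:36691389-36691448: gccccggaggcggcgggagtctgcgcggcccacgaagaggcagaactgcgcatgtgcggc
Ndufb3, chr1:58586324-58586383: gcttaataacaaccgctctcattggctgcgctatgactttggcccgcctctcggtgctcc
Bcs1l, chr1:74588247-74588288: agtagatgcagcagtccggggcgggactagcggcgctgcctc
Mrpl30, chr1:37890412-37890476: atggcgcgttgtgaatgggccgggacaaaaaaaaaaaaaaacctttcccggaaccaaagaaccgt
G and C made up 75% of the bases shown for Cox5b, 69.0% for Bcs1l, 56.7% for Ndufb3 and 46.2% for Mrpl30. The 300 bases of each promoter around the start were searched on both strands for the letters of motifs of NRF1 (GCGC, then A, any base and GCGC), GABPA (CCGGAAG) and YY1 (AAGATGGC), factors known for nuclear genes of mitochondria. The letters were chosen after the promoters had been seen. NRF1 letters were found for Mrpl30 and Mrpl44 and in 4.60% of 32851 promoters, GABPA letters for Bcs1l and in 8.86%, and YY1 letters for none of the 5 and in 2.75%. Each match is shown in capitals within 30 bases. For Mrpl30 it is on the reverse strand, and for Mrpl30 and Mrpl44 it lies inside the paired neighbour.
Bcs1l, GABPA, chr1:74588231-74588260: ggtgggtgtggCCGGAAGtagatgcagcag
Mrpl30, NRF1, chr1:37890384-37890413: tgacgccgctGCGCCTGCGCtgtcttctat
Mrpl44, NRF1, chr1:79775973-79776002: agaagcacttGCGCACGCGCagtacactag
A match describes letters and shows neither binding nor use.

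Over barcodes, the 3 pairs among the chain subunit genes Cox5b, Ndufb3 and Ndufs1 had correlations above 0 in every depth bin. Those among the mitochondrial ribosome genes did not. The trait was not particular to the chain. Pairs of Mrpl30 with Cox5b, Ndufb3 and Ndufs1, of Ndufb3 with Mrpl15, and of Bcs1l with Cox5b and Mrpl44 shared it. Co-variation is the correlation of Pearson residuals within each depth bin, averaged over the 4 bins by their number of barcodes; the points are barcodes of 1 pool that share library and total, so it is a description. Of the 21 pairs among the 7 genes, 20 had a mean above 0. Of all 28680 pairs of genes with 50 or more UMIs, 54.0% did. In every bin, 9 of the 21 were above 0, but the share of all pairs above 0 in every bin was not computed. The 20 became 15 when the 3 cytosolic ribosomal genes were left out of the totals and 14 when every barcode was thinned to 100 UMIs. Their median was 0.0258, against 0.00318 for all pairs, of which the middle 90% lay between -0.0482 and 0.0606.

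Cox5b with Ndufb3 had the highest correlation, 0.270, at 0.101, 0.241, 0.342 and 0.400 from the shallowest to the deepest bin. When every barcode was thinned to 100 UMIs it was 0.102. Hspd1 with Hspe1, which encode the 2 partners of the mitochondrial chaperonin, had 0.243 (0.135 to 0.421 over the bins), a range that overlaps that of Cox5b with Ndufb3. Cox5b correlated with Ndufs1 at 0.138 (0.118 to 0.168 over the bins) and with Mrpl30 at 0.135 (0.00342 to 0.203), and Ndufb3 with Mrpl30 at 0.112 (0.0647 to 0.191) and with Ndufs1 at 0.0925 (0.0430 to 0.181). With Ndufs1, Mrpl30 had 0.0410 and Mrpl44 0.0633. Thinned, Cox5b with Mrpl30 was at 0.0417 and Ndufb3 with Mrpl30 at 0.0279. Mrpl30 had 0.0211 with Mrpl15 and 0.00361 with Mrpl44, and Mrpl15 with Mrpl44 had the lowest value of the 21, -0.0364. Bcs1l stayed between 0.00949 and 0.0507 with the other 6.

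The 3 genes most like each of the 7 were taken among those with 50 or more UMIs. They included others of the 7 for Cox5b, Ndufb3, Ndufs1 and Mrpl30, but not for Bcs1l, Mrpl15 and Mrpl44. For Cox5b they were Ndufb3, Plekhb2 (0.156) and Spats2l (0.147), and for Ndufb3 Cox5b, Ptpn18 (0.116) and Mrpl30. Mrpl30 had Cox5b, Ndufb3 and AI597479 (0.0713). Ndufs1 had Cox5b, Hspd1 (0.136) and Tuba4a (0.132), and Mrpl15 had Hspd1 (0.119), Tuba4a (0.117) and Nop58 (0.101), so that Hspd1 and Tuba4a stood on both lists. For Bcs1l (Rpe, Gigyf2 and Ap1s3) and Mrpl44 (Epha4, Resp18 and Ccnyl1) the values were at most 0.0832 and 0.0864, which in counts this sparse single out no gene. Of the 5 head-to-head pairs, 4 lay between 0.00181 and 0.0175. Their neighbours had 80 to 625 UMIs, and in counts this sparse a value near 0 does not show that a pair varies apart. Ndufs1 with Eef1b2, a translation elongation factor gene, was at -0.110 and below 0 in all 4 bins. That value was not particular to the pair: Ndufs1 had -0.124 with Rpl37a and -0.116 with Rpl7, and Ndufb3 had -0.133 with Eef1b2. Least like Cox5b of all genes was Arl4c, at -0.305 (-0.391 to -0.199 over the bins).

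**Figure D2:**
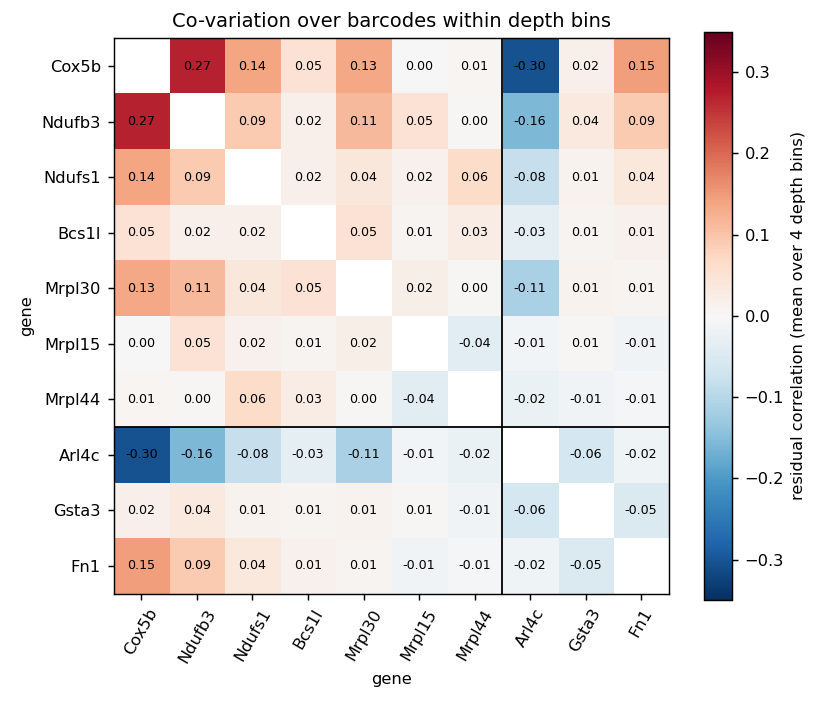
Residual correlation over barcodes, averaged over 4 depth bins, for each pair of the 7 genes and the 3 grouping genes (colour scale and printed value; both axes list the genes). Cox5b with Ndufb3 is the highest pair at 0.27, Mrpl15 and Mrpl44 stay near 0 with the other genes, and Cox5b with Arl4c is the lowest at -0.30.

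Barcodes were next compared by whether they held a UMI of Arl4c, which encodes a small GTPase of the ARF family. Chain subunit genes were lower in the 439 barcodes with Arl4c than in the 949 without it, and the mitochondrial ribosome genes differed less or not at all. Median totals were 275 and 293 UMIs, and the 3 cytosolic ribosomal genes took 40.5% and 40.3% of the UMIs. A UMI of Arl4c was left out of the totals. A gene is called past the threshold at a ratio of 1.5 or more, or of its inverse or less.

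Cox5b stood at 39847 CPM (38802 to 40913) with Arl4c and 51376 CPM (50568 to 52193) without, a ratio of 0.776 (0.752 to 0.800). Median counts were 10 and 15 UMIs per barcode. In the 4 depth bins, from shallow to deep, the Cox5b ratio was 0.858, 0.757, 0.725 and 0.803. Every bin's interval lay below 1, though these intervals leave out the spread of Cox5b between barcodes beyond counting error. Ndufb3 was 8877 against 10724 CPM, a ratio of 0.828 (0.775 to 0.884), and Ndufs1 1395 against 1871 CPM, a ratio of 0.746 (0.630 to 0.880). Both were below 1 in all 4 bins, Ndufb3 at 0.970 in the shallowest bin and 0.787 to 0.825 in the others. Ndufs1 was at 0.467 to 0.889 over the bins. Summed over all depths, all 3 subunit genes of the chain were lower by more than counting error.

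Bcs1l, with 70 and 178 UMIs, had a ratio of 0.854 (0.638 to 1.13), and 0.685 to 1.05 over the bins, too few counts to place it with either group. Mrpl30 stood at 8769 against 9875 CPM, a ratio of 0.888 (0.830 to 0.950), and 0.815 to 0.933 over the bins. Mrpl15 had 3810 and 3719 CPM (1.02, 0.922 to 1.14) and Mrpl44 1468 and 1468 CPM (0.999, 0.842 to 1.18). In barcodes with 300 to under 400 UMIs Mrpl15 was nonetheless at 0.776 (0.599 to 0.997), against 1.02 to 1.12 in the other 3 bins; Mrpl44 ran from 0.850 to 1.14. The sum of the 3 chain subunits was 0.783 (0.762 to 0.805) and that of the 3 ribosome genes 0.933 (0.884 to 0.984). Set against each other, chain subunit UMIs per mitochondrial ribosome UMI were 3.57 with Arl4c and 4.25 without, a ratio of 0.840 (0.817 to 0.864). Most of each sum came from a single gene. Cox5b gave 5512 of 6933 chain UMIs with Arl4c and 15431 of 19214 without. Mrpl30 gave 1213 of 1943 and 2966 of 4524 ribosome UMIs. The ratio thus mostly sets Cox5b against Mrpl30, and the intervals of Ndufb3 (0.775 to 0.884) and Mrpl30 overlapped. Mrpl15 per Cox5b was 1.32 times as high with Arl4c (1.19 to 1.47).

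None of the 7 genes passed the 1.5-fold threshold by Arl4c, where 11.3% of the 239 genes with 50 or more UMIs did. The median ratio of the 7 was 0.854, with 6 below 1, and that of all genes 0.981, with 46.4% above 1. Ratios of the 7 were thus moderate in size.

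**Figure D3:**
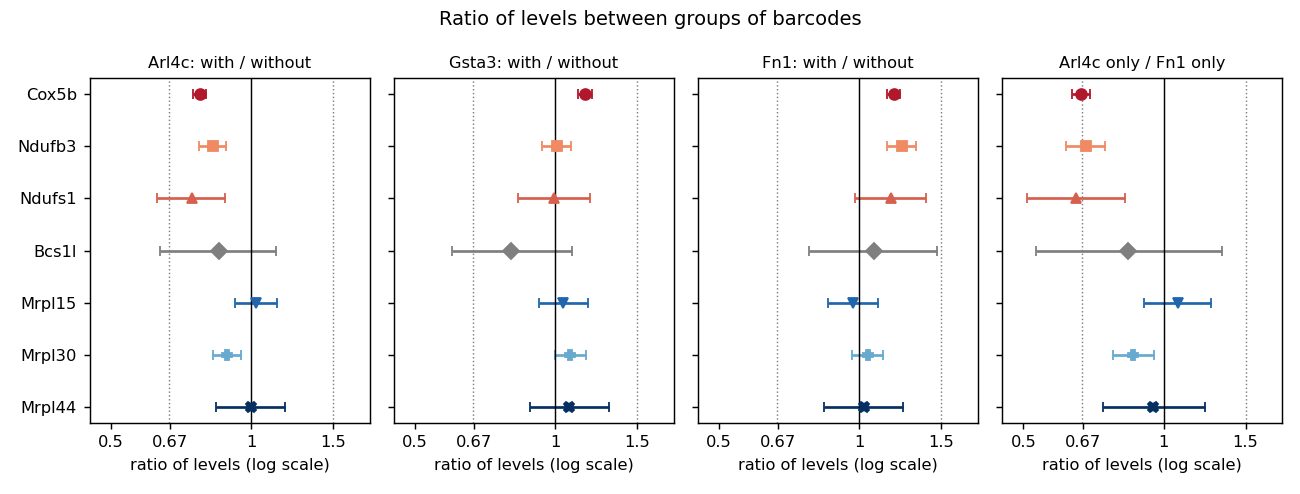
Ratio of levels (log axis) for each of the 7 genes in 4 comparisons of barcodes; points are ratios of summed levels, bars 95% exact intervals for counting error, the solid line a ratio of 1 and the dotted lines the 1.5-fold threshold in either direction. Cox5b, Ndufb3 and Ndufs1 lie left of 1 by Arl4c and right of 1 by Fn1 (the interval of Ndufs1 there includes 1), while Mrpl15 and Mrpl44 stay at 1 within their intervals.

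Cox5b, Ndufb3 and Ndufs1 were lower the more Arl4c UMIs a barcode held. Cox5b stood at 51376 CPM at 0 Arl4c UMIs, 44894 CPM at 1 (226 barcodes), 37754 CPM at 2 to 4 (157 barcodes) and 28896 CPM at 5 or more (56 barcodes). Its median share of a barcode's UMIs over the same groups was 4.94%, 4.23%, 3.55% and 2.69%. The highest share in any barcode was 13.2% at 0 Arl4c UMIs and 5.67% at 5 or more, and the ranges overlapped. Ndufb3 ran in the same order, at 10724, 9766, 8797 and 6269 CPM, and Ndufs1 at 1871, 1466, 1333 and 1320 CPM, where the last 3 do not differ beyond their intervals.

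Mrpl30 ran from 9875 over 9556 and 8199 to 7636 CPM. Mrpl15 did not follow: its levels were 3719, 3754, 3781 and 4054 CPM. At 5 or more Arl4c UMIs against 0, a grouping added after the values had been seen, the ratio was 0.562 (0.518 to 0.610) for Cox5b, 0.585 (0.488 to 0.695) for Ndufb3, 0.705 (0.464 to 1.03) for Ndufs1 and 0.773 (0.656 to 0.906) for Mrpl30. Mrpl15 had 1.09 (0.865 to 1.36) and Mrpl44 0.803 (0.514 to 1.20). Bcs1l had 0.398 (0.128 to 0.946), on 5 UMIs in the 56 barcodes. Cox5b, Ndufb3 and Bcs1l passed the threshold there, 3 of 7, where 32.6% of 239 genes passed it and 21.8% passed it downwards.

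**Figure D4:**
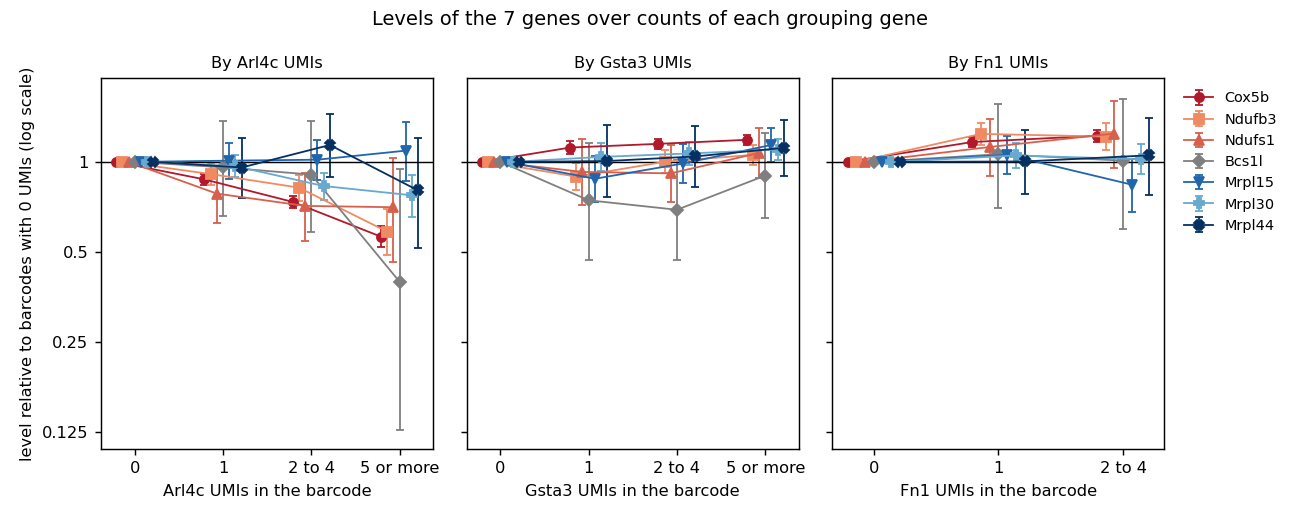
Level of each of the 7 genes relative to barcodes with 0 UMIs of the grouping gene (log axis), by the number of Arl4c, Gsta3 or Fn1 UMIs in the barcode; bars are 95% exact intervals for counting error, and the 9 barcodes with 5 or more Fn1 UMIs are not drawn. Cox5b and Ndufb3 step down with Arl4c to 0.562 and 0.585, Cox5b is 1.12 to 1.18 over Gsta3, and Mrpl15 stays within its intervals around 1 over Arl4c.

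Other cell type markers also differed by Arl4c. Of the lists with measured genes, the endocrine genes Ptprn and Resp18 had 622 CPM with Arl4c and 336 CPM without, and Nrp2 (endothelium) 925 and 596 CPM. Ptpn18 (tuft) had 1410 and 2500 CPM, Vil1 and Alpi (enterocyte) 3860 and 4691 CPM, and Mcm3, Sgol2 and Hjurp (cycling) 1294 and 1765 CPM. T and B cell genes (Ctla4, Icos and Cd28) had 0 UMIs with Arl4c, which allows up to 21.7 CPM, and 20 UMIs (66.6 CPM) without. Slc11a1 and Cxcr2 (myeloid) had 7 and 4 UMIs, and 4 fibroblast and muscle genes 11 and 45. Without the 89 barcodes that held markers of other cell types, an alternative added after the data had been seen, the Cox5b ratio was 0.785. The part of Nrp2 and of the enterocyte and cycling genes in these ratios was not tested.

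Gsta3, an alpha-class glutathione S-transferase gene, split the barcodes into 1008 with and 380 without it, with median totals of 316 and 212 UMIs. Summed over all depths, Cox5b differed beyond counting error, at 49761 CPM (49015 to 50516) with and 42887 CPM (41567 to 44238) without, a ratio of 1.16 (1.12 to 1.20). Combined over the depth bins, which differ between these groups, it was 1.12; within the bins it was 1.06, 1.10, 1.04 and 1.29, and the interval included 1 in the first and the third. The other 6 genes had ratios between 0.803 (Bcs1l, 0.600 to 1.09) and 1.08 (Mrpl30, 0.999 to 1.16), all with 1 inside the interval of the summed ratio. Ndufb3 stood at 10273 against 10201 CPM, 1.01 (0.937 to 1.08). Its ratio was below 1 in the shallowest and above 1 in the deepest bin: 0.794 (0.671 to 0.940), 1.05 (0.910 to 1.21), 1.06 (0.912 to 1.24) and 1.20 (1.02 to 1.42) from the shallowest to the deepest bin. In barcodes with 200 or more UMIs it was 1.09 (1.01 to 1.19). Mrpl30 was at 1.02 to 1.09 over the bins, and its ratio was 1.09 (1.01 to 1.17) with no filter on barcodes, so its interval lay at the edge of 1. Over the bins, Ndufs1 ran from 0.777 to 1.16, Bcs1l from 0.593 to 1.06, Mrpl15 from 0.897 to 1.01 and Mrpl44 from 0.858 to 1.09. Cox5b per Ndufb3 was accordingly 1.15 times as high with Gsta3 (1.11 to 1.19). None of the 7 passed the threshold, where 13.4% of 239 genes did. Residual correlations with Gsta3 lay between -0.0118 and 0.0350 for all 7.

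Ptpn18 (1624 with, 4220 CPM without), the endocrine genes (238 and 1138 CPM) and the T and B cell genes (2 and 18 UMIs) were lower with Gsta3, and the enterocyte genes Vil1 and Alpi were higher, at 4712 against 3629 CPM (1.30, 1.15 to 1.46). The part of other cell types in the Cox5b ratio was tested only by leaving out the 89 barcodes with endocrine, T and B cell, myeloid or high Ptpn18 counts, which gave 1.13; the enterocyte genes were not among these markers. The other alternatives gave 1.12 to 1.18.

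Fn1, the gene of the matrix glycoprotein fibronectin, gave 283 barcodes with and 1105 without a UMI, at median totals of 283 and 286 UMIs. Cox5b and Ndufb3 were higher with Fn1, and the other 5 genes had 1 inside the interval of the summed ratio. Cox5b stood at 54460 CPM (52933 to 56020) with and 45967 CPM (45260 to 46682) without, a ratio of 1.18 (1.15 to 1.22). In the depth bins the ratio was 1.14, 1.31, 1.19 and 1.14, with 1 outside every interval for counting error. The interval of the shallowest bin was 1.03 to 1.25. Ndufb3 had 11923 against 9676 CPM, a ratio of 1.23 (1.15 to 1.32). It was 1.09 in the shallowest bin (0.890 to 1.32) and 1.23 to 1.27 in the deeper ones. Ndufs1 had 1944 against 1662 CPM (1.17, 0.981 to 1.39), with 0.827, 1.58, 1.25 and 1.05 in the bins and an interval above 1 in the second (1.10 to 2.24).

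Bcs1l (1.08, 0.780 to 1.47), Mrpl15 (0.969, 0.856 to 1.10), Mrpl30 (1.04, 0.966 to 1.12) and Mrpl44 (1.02, 0.838 to 1.24) all had intervals around 1. Over the bins they ran from 0.982 to 1.19, 0.842 to 1.41, 1.01 to 1.09 and 0.836 to 1.28 in that order. None of the 7 passed 1.5-fold, where 9.62% of 239 genes did; their median ratio was 1.08 and that of all genes 1.01. Chain subunit UMIs per mitochondrial ribosome UMI were 4.56 with Fn1 and 3.91 without, a ratio of 1.17 (1.13 to 1.20). These sums again came mostly from Cox5b (4819 of 6046 chain UMIs with Fn1) and Mrpl30 (870 of 1325 ribosome UMIs). The step came with the first Fn1 UMI: Cox5b stood at 53553 CPM in the 173 barcodes with 1, at a ratio of 1.17 to those with 0, and at a ratio of 1.22 in the 101 barcodes with 2 to 4. Ptpn18 was 1605 against 2292 CPM and the fibroblast and muscle genes had 2 against 54 UMIs. Without the 89 marker-bearing barcodes, which include those with 5 or more Ptpn18 UMIs, Cox5b was at 1.19 and Ndufb3 at 1.25. The fibroblast and muscle genes were not among those markers, and their part in these ratios was not tested.

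The barcodes with Arl4c but no Fn1 (356) and with Fn1 but no Arl4c (200) share no barcode, which the comparisons above do. Between them the 3 chain subunits were lower in the Arl4c group, and the ribosome genes differed less. Cox5b stood at 38506 CPM (37369 to 39668) against 57958 CPM (56094 to 59868), a ratio of 0.664 (0.636 to 0.694). Ndufb3 had 8557 against 12578 CPM (0.680, 0.619 to 0.748), and Ndufs1 1338 against 2062 CPM (0.649, 0.510 to 0.827). Mrpl30 had 0.860 (0.778 to 0.952), Mrpl44 0.951 (0.740 to 1.23), Mrpl15 1.07 (0.909 to 1.27) and Bcs1l 0.838 (0.532 to 1.33). Over the bins Cox5b was at 0.602 to 0.747 with every interval for counting error below 1, and Ndufs1 at 0.528 to 0.733. Ndufb3 was at 0.893 (0.671 to 1.19) in the shallowest bin and 0.645 to 0.679 in the others. Mrpl15 was at 0.764 to 1.04 in the first 3 bins and 1.35 (1.05 to 1.75) in the deepest, while Mrpl30 ran from 0.828 to 0.882, Mrpl44 from 0.861 to 1.10 and Bcs1l from 0.689 to 0.968. Cox5b and Ndufs1 were past the threshold, 2 of 7, where 21% of 238 genes were in either direction and 10.9% downwards, and 9.28% of the 97 genes with 500 or more UMIs. Ndufb3 lay just short of it. The median ratio was 0.838 for the 7 and 0.964 for all genes.

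Chain subunit UMIs per mitochondrial ribosome UMI were 3.47 in the Arl4c group and 4.78 in the Fn1 group, a ratio of 0.726 (0.698 to 0.755). Here too Cox5b gave most chain UMIs, 4347 of 5464 in the Arl4c group and 3654 of 4577 in the Fn1 group. Mrpl30 gave 978 of 1576 and 635 of 958 ribosome UMIs. The summed chain subunits stood at 72598 CPM with Fn1 only, 61763 CPM with neither gene, 58121 CPM with both and 48400 CPM with Arl4c only. The 83 barcodes with both genes thus lay between the groups, with Cox5b at 46093 CPM (43484 to 48818). Over the same 4 groups the ribosome genes stood at 15195, 15047, 14520 and 13960 CPM, with neighbouring intervals overlapping. The endocrine genes had 58 UMIs in the Arl4c group and 1 in the Fn1 group, and Nrp2 had 992 and 619 CPM. The 2 calls lay close to the threshold: without the 89 marker-bearing barcodes Cox5b was at 0.673, just short of it, and Ndufs1 at 0.627. Without the 3 cytosolic ribosomal genes in the totals they were at 0.674 and 0.658. In barcodes with 200 or more UMIs 3 genes passed, Cox5b at 0.654, Ndufb3 at 0.657 and Ndufs1 at 0.655.

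**Figure D5:**
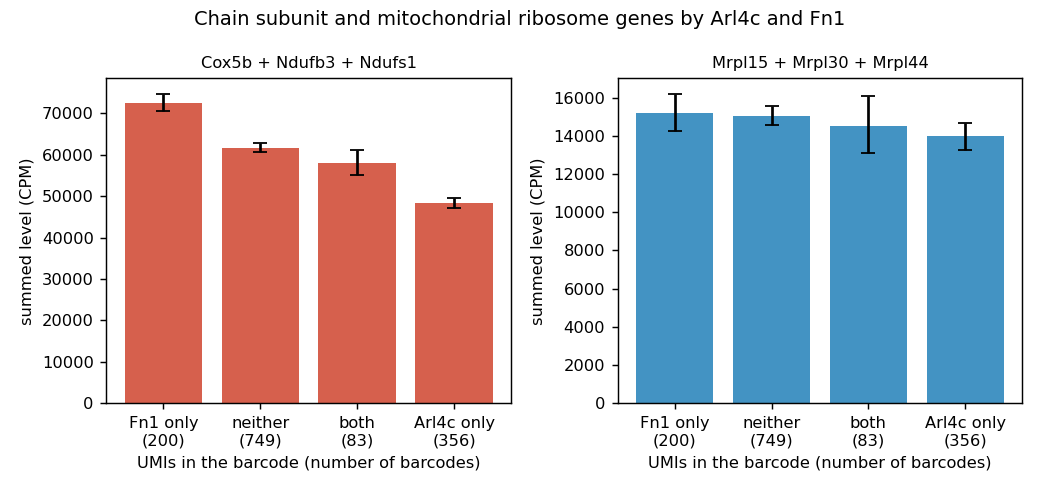
Summed level (CPM) of the 3 chain subunit genes (left) and the 3 mitochondrial ribosome genes (right) in barcodes grouped by UMIs of Arl4c and Fn1; bars are summed counts, whiskers 95% exact Poisson intervals, and the number of barcodes stands under each group. The chain subunits go from 72598 CPM with Fn1 only to 48400 CPM with Arl4c only, and the ribosome genes from 15195 to 13960 CPM. In every group Cox5b holds most of the chain sum and Mrpl30 most of the ribosome sum.

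Inside the groups, the mean residual correlation of Cox5b and Ndufb3 was 0.237 in barcodes without Arl4c and 0.262 in those with it, 0.229 and 0.285 without and with Gsta3, and 0.257 and 0.227 without and with Fn1. Over the depth bins it ran from 0.0381 to 0.399 with Arl4c and from 0.0800 to 0.398 with Gsta3, but from -0.168 to 0.411 with Fn1, the smallest group. In the groups without these genes it was above 0 in every bin. Cox5b with Mrpl30 was 0.0787 without Arl4c and 0.198 with it, a difference that was not tested. Over all barcodes, Arl4c had negative correlations with Cox5b (-0.305), Ndufb3 (-0.158) and Mrpl30 (-0.114) in all 4 bins, and Fn1 a positive one with Cox5b (0.147) in all 4.

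Other mitochondrial genes of the table were taken from lists by name, not by how they moved: 17 had a row and 16 had 50 or more UMIs. By Arl4c 2 passed the threshold upwards and 0 downwards. Coq10b, a coenzyme Q binding protein gene, was at 1605 against 1055 CPM (1.52, 1.28 to 1.81). Cyp27a1, a sterol hydroxylase gene, was at 325 against 210 CPM (1.55, 1.03 to 2.31). Of all genes 5.02% passed upwards. The median of the 16 was 0.895. Mrps9, of the small subunit of the mitochondrial ribosome, had a ratio of 1.02, close to those of Mrpl15 and Mrpl44. Tmem70, an ATP synthase assembly factor gene, had 0.899, Coa5, for complex IV assembly, 0.802, Hspd1 0.822 and Hspe1 0.891. By Gsta3 Mars2, the mitochondrial methionyl-tRNA synthetase gene (226 against 150 CPM), and Cyp27a1 (270 against 172 CPM) passed upwards, on 91 and 108 UMIs in all. The intervals of their ratios, 0.844 to 2.88 and 0.918 to 2.87, included 1, and 5.44% of all genes passed upwards. By Fn1 none of the 16 passed. Between the Arl4c only and Fn1 only groups Coa5 (0.659, 0.517 to 0.840) and Hibch (0.653, 0.445 to 0.961), an enzyme of valine breakdown, passed downwards. Fastkd2 (0.628, 0.349 to 1.14), a mitochondrial RNA-binding protein gene, also passed downwards. Cyp27a1 (1.63, 0.851 to 3.34) passed upwards. The intervals of Fastkd2 and Cyp27a1 included 1. Of all genes 10.9% passed downwards and 10.1% upwards.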

How the data were processed

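Raw counts per gene and barcode, as deposited by the authors in a pooled table, were taken to be UMIs. Tools credited in the submitters' processing notes are Cell Ranger and Seurat 2.3.0, with the build mm10; their roles, and any filter or annotation applied, are not stated there. One row, Asb18, was short (928 of 1460 values, all 0) and was left out. Barcodes with under 100 UMIs were left out, and 0 value columns were unused. Levels have exact Poisson intervals, ratios exact conditional binomial intervals and shares exact Clopper-Pearson intervals, all at 95%. In the comparisons the grouping gene stayed out of the totals. Pearson residuals used an overdispersion parameter of 100 and a limit of 10. Python 3.11.15, numpy 2.4.6 and scipy 1.17.1 were used, and the code was checked on simulated data. Named genes were the 7 members, listed mitochondrial genes past 1.5-fold and the 3 genes most like each member; Mrps9, Tmem70, Coa5, Hspd1, Hspe1 and the head-to-head neighbours were named after their values were seen. The members and lists were chosen with earlier results of these data known. Alternatives changed the UMI filter, the totals, the thinning, the group definition and the depth handling.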

Additional observations from a re-analysis of the deposited data

Results flagged for a closer look

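The 72 barcodes with fewer than 100 UMIs, which entered no comparison, held 5043 UMIs. All 7 genes were above the 595 CPM that a count of 0 allows there: Cox5b at 35296 CPM, Ndufb3 at 11104 CPM, Mrpl30 at 6544 CPM, Mrpl15 at 2776 CPM, Ndufs1 at 2578 CPM, Mrpl44 at 2181 CPM and Bcs1l at 1190 CPM. Bcs1l rested on 6 UMIs, and its interval (437 to 2590 CPM) includes 595 CPM. Relative to the kept barcodes, Cox5b was at 0.741 (0.636 to 0.859) and Mrpl30 at 0.689 (0.473 to 0.969). Intervals of the other 5 included 1.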

How the results depend on the processing

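There were 84 alternatives of the summed levels, the counts past the threshold, the median residual variance and the median pair correlation. Of these, 73 stayed within the limits set for the same value, 11 moved and 0 changed direction. A direction was defined only for ratios of summed levels and for the median pair correlation. A count of 0 that stayed at 0 was rated as the same. With 2 or more UMIs of the grouping gene, the summed ratio was 0.733 by Arl4c and 0.641 between the Arl4c only and Fn1 only groups. With 5 or more UMIs it was 0.623 by Arl4c, with 3 genes past the threshold, 1.15 by Gsta3 and 1.12 by Fn1, where 1 gene (Bcs1l, on 3 UMIs in 9 barcodes) passed. Between the Arl4c only and Fn1 only groups 1 gene passed, in place of 2, when the 3 cytosolic ribosomal genes left the totals (Cox5b 0.674) or barcodes with markers of other cell types were left out (Cox5b 0.673), and 3 passed at 200 or more UMIs and with 2 or more UMIs of the grouping gene. The summed level of the 7 genes was 75782 CPM at 200 or more UMIs and 125129 CPM without the 3 ribosomal genes; the cause was not tested, except that the last has a smaller denominator by construction. For single genes and pairs, 414 of 452 alternatives stayed the same and 38 moved. A pair correlation changed sign in 11 of 126 alternatives (Ndufs1 with Mrpl15 from 0.0154 to -0.0132), and a single-gene ratio crossed 1 in 15 of 245 (Mrpl15 by Gsta3 from 1.04 to 0.963 when combined over depth bins); each of these ratios had 1 inside its interval as reported. Genes called past 1.5-fold by Arl4c were 4.12% of those with 500 or more UMIs, against 11.3%; by Gsta3 6.19%, by Fn1 1.02% and between the Arl4c only and Fn1 only groups 9.28%, and with 5 or more Fn1 UMIs 62.3%. The depth of part of 1 chromosome limits Bcs1l, Mrpl44 and Ndufs1 most. No paired analysis was possible because the barcodes carry no sample number and no group is compared across samples.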
